A study of Mus musculus with 7 samples.

Results

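Serotonin receptors were examined at the mRNA level in the cortex of transgenic Alzheimer model mice fed a control diet (CD) or a ketogenic diet (KD). The 10 genes, Htr1a, Htr1b, Htr1f, Htr2a, Htr2c, Htr3a, Htr4, Htr5a, Htr6 and Htr7, were taken by symbol from the count tables, which list 23413 symbols. All 10 passed the filter on low counts that left 15881 genes for testing. Every mouse carried the transgenes of the same Alzheimer model line, driven by prion promoter elements, so both diets share that background and no wild-type cortex was compared. The CD group, labelled SD, held 4 mice whose food gave 74% of energy as carbohydrate, 10% as protein and 16% as fat. The KD group held 3 mice whose food gave under 0.5% of energy as carbohydrate, 10% as protein and 90% as fat. Feeding began at 6 months of age and lasted 7 months, and cortex was taken at 13 months, with 1 RNA-seq library per mouse.

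Serotonin reaches the cortex through axons of raphe neurons in the brainstem, and the response depends on which receptors the cortical cells make. Htr1a, Htr1b, Htr1f and Htr5a encode receptors that couple to inhibitory G proteins and lower cyclic AMP. Htr2a and Htr2c encode receptors that act through Gq and phospholipase C, and Htr4, Htr6 and Htr7 encode receptors that raise cyclic AMP through the stimulatory G protein. Htr3a differs from all of these, since it encodes a subunit of a cation channel opened by serotonin and marks a class of cortical interneurons. Htr2a is known for its strong presence in cortical pyramidal neurons, and Htr2c for the choroid plexus and for subcortical nuclei.

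The libraries held 22272883 to 36614954 counts, and the members' counts ranged from 14 (Htr6, KD replicate 3) to 2607 (Htr2c, KD replicate 3). Values are given in CPM, a gene's counts relative to the size of its library, with sizes scaled by the trimmed mean of M values (TMM). All 15 markers of cortical excitatory neurons had counts in every library, and Slc17a7, the vesicular glutamate transporter of these neurons, lay at 429 to 632 CPM. A pair of libraries stood apart by markers of neighbouring tissue, CD replicate 4 and KD replicate 3. The summed level of 13 thalamus and ventral forebrain markers was 280 CPM in CD replicate 4 and 358 CPM in KD replicate 3, against 75.2 to 119 CPM in the other 5 libraries. KD replicate 3 was the highest library for 7 of these 13 markers, among them Baiap3 at 66.9 CPM against 1.86 to 4.74 CPM elsewhere, while Hcrt and Rora were lowest there. CD replicate 4 was highest for 9 of 11 olfactory bulb markers, with Eomes at 7.47 CPM against at most 0.916 CPM elsewhere, and for 5 of 12 hippocampal markers. Results for the receptors are therefore given with and without these libraries.

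Per length, Htr5a was the most abundant receptor mRNA, followed by Htr2a and Htr1a. To compare genes, CPM were divided by the length of all annotated exons in kb (CPM per kb, mean ± SD over the 7 libraries, diets pooled). Htr5a stood at 6.70 ± 1.07 CPM per kb, Htr2a at 5.40 ± 2.45, Htr1a at 4.62 ± 2.22 and Htr7 at 4.41 ± 0.943 CPM per kb. Htr3a followed at 3.83 ± 0.895, Htr1f at 3.65 ± 0.856 and Htr2c at 3.55 ± 4.00 CPM per kb. These 7 genes did not separate by neighbour: each exceeded the next in 2 to 5 of 7 libraries. Htr4 was lower than Htr2c in 7 of 7 libraries, at 1.13 ± 0.891 CPM per kb, and Htr1b was lower than Htr4 in 7 of 7, at 0.429 ± 0.162 CPM per kb. Htr6, at 0.291 ± 0.0786 CPM per kb, was below Htr1b in 4 of 7 libraries.

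**Figure D1:**
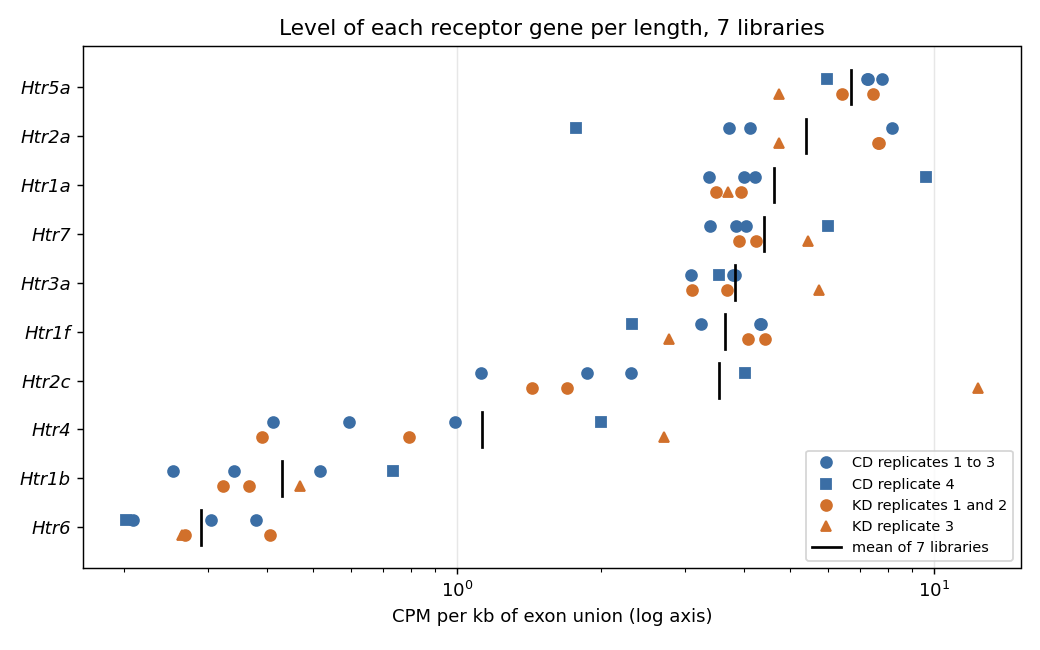
Each point is 1 library, placed on a log axis of CPM per kb of annotated exon, with a row per receptor gene and a bar at the mean of 7 libraries. CD is blue and KD orange, CD replicate 4 is a square and KD replicate 3 a triangle. Htr5a keeps a narrow range at the top, while Htr2c spreads from 1.13 to 12.4 CPM per kb.

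The place of Htr2c depends on the length used and on KD replicate 3. Its annotated exons sum to 9328 bases over 7 transcripts, but its longest transcript has 4883 bases. By the longest transcript its mean over 7 libraries ranked 1 rather than 7 of the 10. That mean includes 115 CPM in KD replicate 3, against 10.5 to 37.4 CPM elsewhere, so length alone does not set the place. Within libraries Htr2c ranked 7 of 10 by exon length in 5 libraries, 4 in CD replicate 4 and 1 in KD replicate 3. Ranks within libraries by the longest transcript were not computed. Htr1a ranked 1 in CD replicate 4, the only library where it did.

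Htr1a, the receptor that also acts as the autoreceptor on raphe cell bodies, was nearly level across 6 mice and high in 1. It is a gene of 1 exon on mm10 chr13:105443639-105448122 (plus strand). Its level was 15.1, 18.9, 17.9 and 43.1 CPM in CD replicates 1 to 4 and 17.7, 15.7 and 16.6 CPM in KD replicates 1 to 3. CD replicate 4 exceeded the next library 2.28-fold, and the KD values lie inside the CD range. The means were 23.8 ± 13 CPM in CD (SD, n = 4) and 16.6 ± 1.0 CPM in KD (n = 3). The log2 fold change, KD against CD here and throughout, was -0.52 with a standard error of 0.34 (edgeR quasi-likelihood test, adjusted p = 0.979). Without CD replicate 4 it was -0.06, so 1 library sets the size of the difference.

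The other inhibitory-class genes showed no diet difference beyond their spread. Htr5a, on chr5:27842149-27855088 (plus strand), was the steadiest of the 10 genes, with a highest value 1.65 times the lowest. Its level was 39.1, 38.9, 41.9 and 32.1 CPM in CD and 34.5, 40.0 and 25.4 CPM in KD. KD replicate 3 and CD replicate 4, the same libraries that stood apart by their markers, held its lowest values. The log2 fold change was -0.19 with a 95% interval of -0.56 to 0.18 (edgeR quasi-likelihood test, adjusted p = 0.979), which limits any change of this gene more tightly than for any other of the 10. Htr1f, on chr16:64924729-65105854 (minus strand), lay at 8.38, 11.1, 11.2 and 6.0 CPM in CD and 10.5, 11.4 and 7.17 CPM in KD, and was likewise lowest in these libraries. Its log2 fold change was 0.08, with an interval of -0.50 to 0.67. Htr1b encodes a receptor that also acts as the autoreceptor on serotonin terminals. The gene, on chr9:81628291-81633828 (minus strand), lay at 1.20, 1.61, 2.44 and 3.47 CPM in CD and 1.73, 1.53 and 2.21 CPM in KD. Its log2 fold change was -0.27 (-1.15 to 0.62) with all libraries and 0.05 without CD replicate 4. Of its 4724 exon bases, 729 are shared with the antisense gene D430036J16Rik. The strand setting of the counting is not given in the sources used here, so reads from the shared bases cannot be told apart.

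Htr2a and Htr2c, which couple to the same G proteins, did not follow each other across the mice. Htr2a, on chr14:74640840-74709494 (plus strand), stood at 23.0, 20.9, 45.9 and 9.95 CPM in CD and 42.9, 42.8 and 26.5 CPM in KD. Its values were high in CD replicate 3 and in KD replicates 1 and 2 and low in CD replicate 4, and the KD values lie inside the CD range. The means were 24.9 ± 15.1 CPM in CD (SD, n = 4) and 37.4 ± 9.46 CPM in KD (n = 3), a log2 fold change of 0.59 (-0.40 to 1.58, edgeR quasi-likelihood test, adjusted p = 0.979). Of the 10 genes it had the smallest exact permutation p (two-sided, p = 0.229). Without CD replicate 3 the log2 fold change was 1.06 (adjusted p = 0.674), and without CD replicate 4 it was 0.32.

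Htr2c, on chrX:146962513-147197277 (plus strand), had the widest range of the 10 genes. Its level was 17.5, 10.5, 21.7 and 37.4 CPM in CD and 15.9, 13.4 and 115 CPM in KD. KD replicate 3 stood 3.08-fold above the next library and 11.0-fold above the lowest, while the other KD mice lay inside the CD range. The means were 21.8 ± 11.4 CPM in CD (SD, n = 4) and 48.2 ± 58.2 CPM in KD (n = 3), a log2 fold change of 1.14 with a standard error of 0.75 (edgeR quasi-likelihood test, adjusted p = 0.979). Without KD replicate 3 the sign turned, to -0.58. Choroid plexus markers, 12 genes with counts in every library, summed to 1017 CPM in CD replicate 1, to 209 CPM in KD replicate 3 and to 368 to 476 CPM in the other 5 libraries. Their mean log2 CPM was 0.14 in CD replicate 2, where Htr2c was lowest, 1.07 to 1.26 in CD replicate 3 and all KD libraries, 2.35 in CD replicate 4 and 3.38 in CD replicate 1. Their part in the Htr2c values was not tested. In single libraries the ratio of Htr2a to Htr2c ran from 1.32 to 3.20 in 5 mice and was 0.266 in CD replicate 4 and 0.230 in KD replicate 3.

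**Figure D2:**
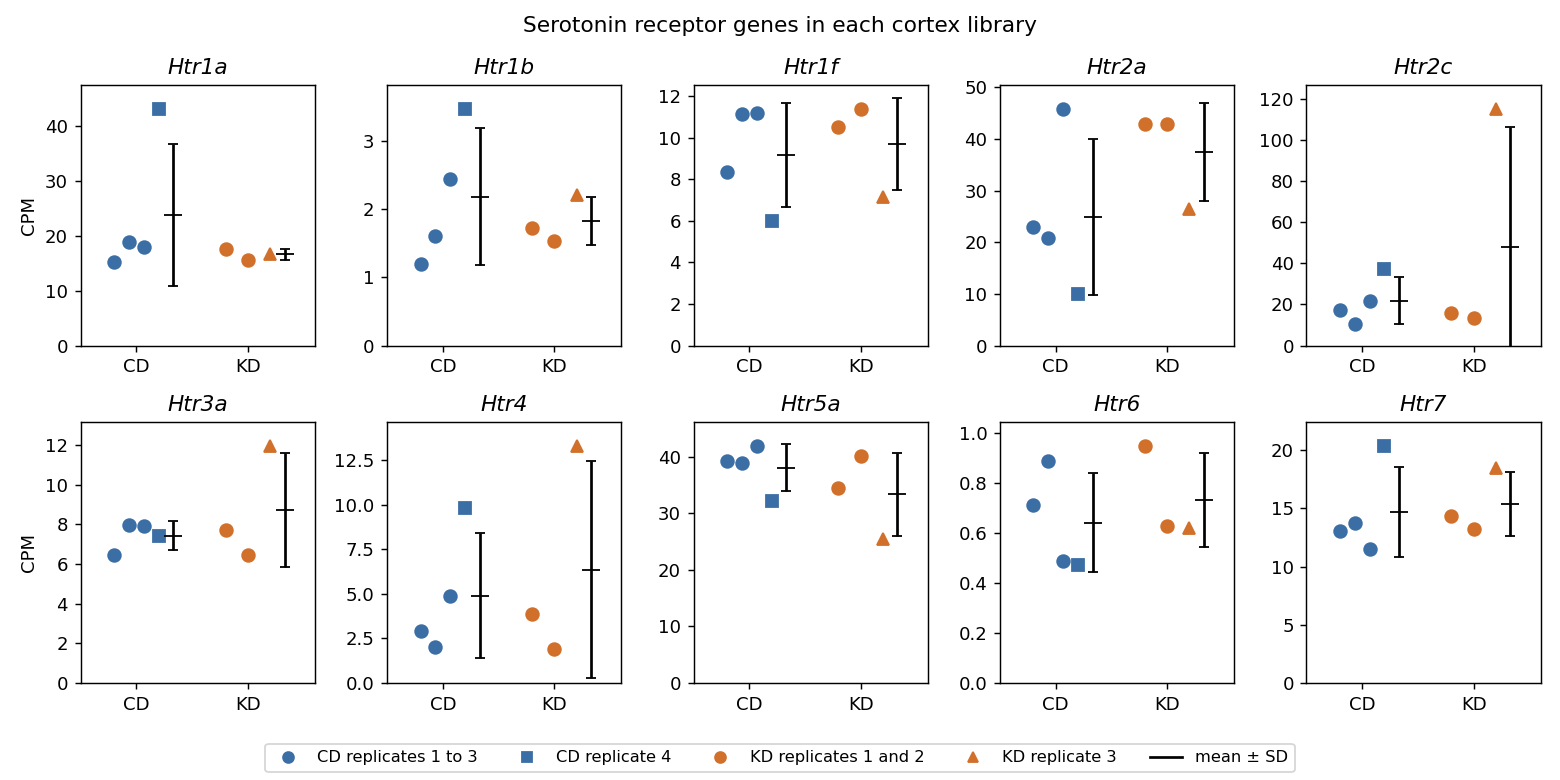
Each panel is a receptor gene, with CPM on the vertical axis from 0 and the CD and KD libraries on the horizontal axis. Black bars give the mean ± SD (n = 4 CD, n = 3 KD), and the lower bar of Htr2c in KD is cut off at 0. No gene separates the diets, and the extreme points are often CD replicate 4 (square, as for Htr1a) or KD replicate 3 (triangle, as for Htr2c).

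The bases upstream of Htr1a, Htr2a and Htr2c are shown because they differed in which library stood out: Htr1a was high in CD replicate 4, Htr2a low in that library and Htr2c high in KD replicate 3. They were read from RefSeq windows on GRCm38.p6, each cut before the first annotated transcript start, and capitals mark a GC box (GGGCGG, or CCGCCC on the other strand), a motif bound by Sp1-type factors.
Htr1a upstream, chr13:105443443-105443638, plus strand: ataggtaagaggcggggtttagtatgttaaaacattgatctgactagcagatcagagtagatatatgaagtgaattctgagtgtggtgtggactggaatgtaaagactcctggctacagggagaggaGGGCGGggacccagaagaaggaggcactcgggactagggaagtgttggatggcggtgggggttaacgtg
Htr2a upstream, chr14:74640624-74640839, plus strand: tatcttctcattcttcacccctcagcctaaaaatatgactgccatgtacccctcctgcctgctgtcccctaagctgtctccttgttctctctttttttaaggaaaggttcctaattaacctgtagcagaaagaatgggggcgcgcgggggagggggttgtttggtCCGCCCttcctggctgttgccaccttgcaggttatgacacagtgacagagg
Htr2c upstream, chrX:146962263-146962463, plus strand: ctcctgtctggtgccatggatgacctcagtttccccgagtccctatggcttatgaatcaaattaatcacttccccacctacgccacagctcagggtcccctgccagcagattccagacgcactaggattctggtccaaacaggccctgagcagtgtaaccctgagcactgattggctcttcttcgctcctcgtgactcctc
Over windows of 250 bases before the start, searched on both strands, 8 of the 10 genes had an entry, without Htr3a and Htr4. The 8 genes had 9 windows. A GC box occurred in 3 of the 9, in Htr1a, Htr2a and Htr6, against 32.7% of 32851 windows of all genes. Htr7 alone held TGACG or CGTCA, the core letters of the cyclic AMP response element, which 17.8% of all windows hold. The full element TGACGTCA, which contains those letters, and the TATA box letters TATAAA were in none of the 8, against 1.55% and 12.4% of all windows.

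Among the receptors that raise cyclic AMP, Htr4 varied nearly as widely as Htr2c and in the same libraries. Htr4, on chr18:62324204-62496577 (plus strand), stood at 2.92, 2.02, 4.86 and 9.84 CPM in CD and 3.88, 1.92 and 13.3 CPM in KD. Both libraries that stood apart by their markers were highest, and the log2 fold change of 0.36 (-1.25 to 1.98) turned to -0.78 without KD replicate 3. Htr7, on chr19:35958734-36057507 (minus strand), stood at 13.1, 13.7, 11.5 and 20.4 CPM in CD and 14.4, 13.3 and 18.5 CPM in KD. It was again highest in those libraries, over a smaller range, with a log2 fold change of 0.06 (-0.42 to 0.55). Htr6, on chr4:139061108-139075570 (minus strand), was the lowest of the 10, at 0.715, 0.889, 0.489 and 0.474 CPM in CD and 0.950, 0.629 and 0.619 CPM in KD. These rest on 14 to 26 counts per library, and the interval of its log2 fold change of 0.19 ran from -0.67 to 1.05.

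Htr3a, on chr9:48899213-48911099 (minus strand), was steady except in 1 mouse. It stood at 6.43, 7.97, 7.91 and 7.39 CPM in CD and 7.68, 6.47 and 11.9 CPM in KD. KD replicate 3 exceeded the next library 1.50-fold, and the log2 fold change was 0.23 (-0.28 to 0.73) with that library and -0.07 without it. The summed level of 13 markers of the Htr3a class of interneurons was 1070 CPM in KD replicate 3, which was highest for 5 of the 13. It was 1011 CPM in CD replicate 4, where Htr3a was 7.39 CPM, and 707 to 933 CPM elsewhere. The part of these cells in the Htr3a value was not tested. In bulk RNA, fewer cells of a type and less RNA per cell cannot be told apart.

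Against the diet, then, 0 of the 10 receptor genes passed an adjusted p of 0.05 in edgeR's quasi-likelihood test (0% of all tested genes did, that is 0 of 15881). At the study's own threshold, a raw p of at most 0.01, 0 of 10 passed, against 0.321% of all tested genes, or 51. The study reported more genes at this threshold from its own edgeR analysis, and the reason was not tested. At a raw p under 0.05 the count was 0 of 10, against 3.19%, and the smallest raw p among the 10 was 0.163, for Htr2c. The shares of 0.321% and 3.19% lie below the thresholds themselves, so 0 of 10 says little about the receptors. The CD and KD values overlapped for all 10, where 4.11% of all tested genes had diet ranges that did not overlap. The adjusted p ran from 0.979 to 0.991. Higher estimates in KD were found for 7 genes and lower ones for 3 (Htr1a, Htr1b and Htr5a), with a median log2 fold change of 0.14 against -0.00329 over all tested genes, of which 49.0% lay above 0. The exact permutation test could not have gone below 0.0571 with 4 against 3 mice.

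**Figure D3:**
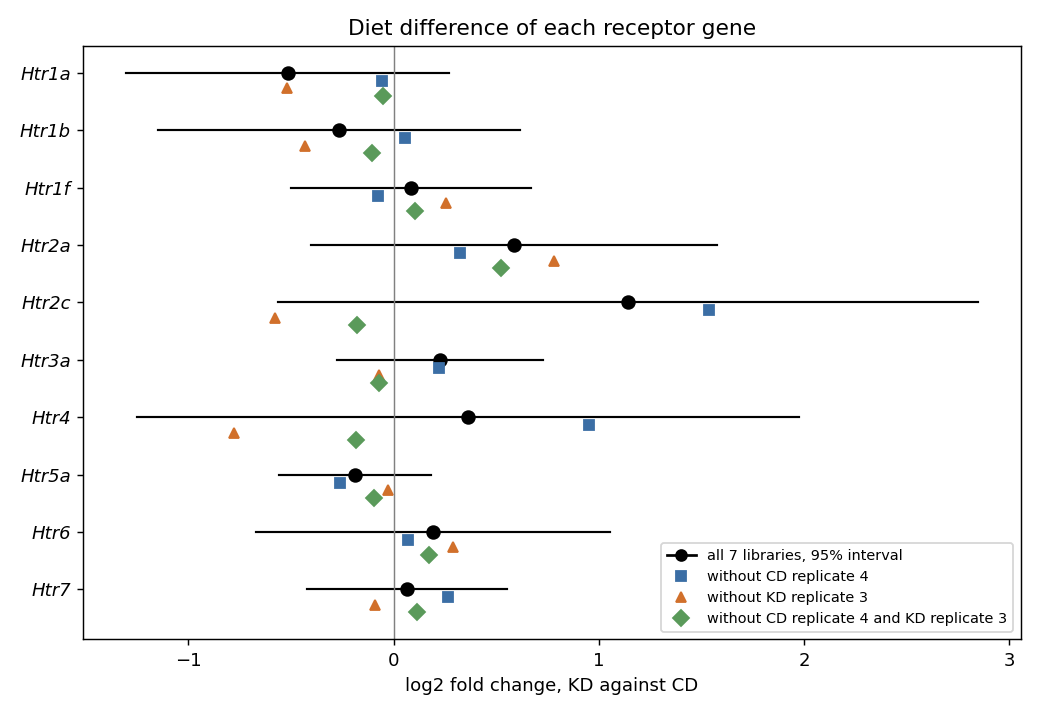
The horizontal axis is the log2 fold change of KD against CD for each receptor gene. Black points with lines are the estimates over 7 libraries with 95% intervals, and coloured symbols leave out CD replicate 4 (square), KD replicate 3 (triangle) or both (diamond). Every interval includes 0, and Htr2c and Htr4 cross 0 when KD replicate 3 is left out.

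The receptor genes varied widely among mice on the same diet. Their median within-diet SD of log2 CPM was 0.46, against 0.21 over all tested genes. Htr2c lay at percentile 97.9 of all tested genes for this SD, Htr4 at 97.6, Htr2a at 91.5, Htr1b at 84.0 and Htr1a at 83.0. At the other end Htr5a lay at percentile 56.9. Each of the 10 genes had its highest or its lowest value in CD replicate 4 or KD replicate 3, as did 69.5% of all tested genes. CD replicate 4 was the highest library for 3 (Htr1a, Htr1b, Htr7) and the lowest for 3 (Htr1f, Htr2a, Htr6), and KD replicate 3 was the highest for 3 (Htr2c, Htr3a, Htr4) and the lowest for Htr5a. The part of the tissue markers that were high in these libraries was not tested.

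**Figure D4:**
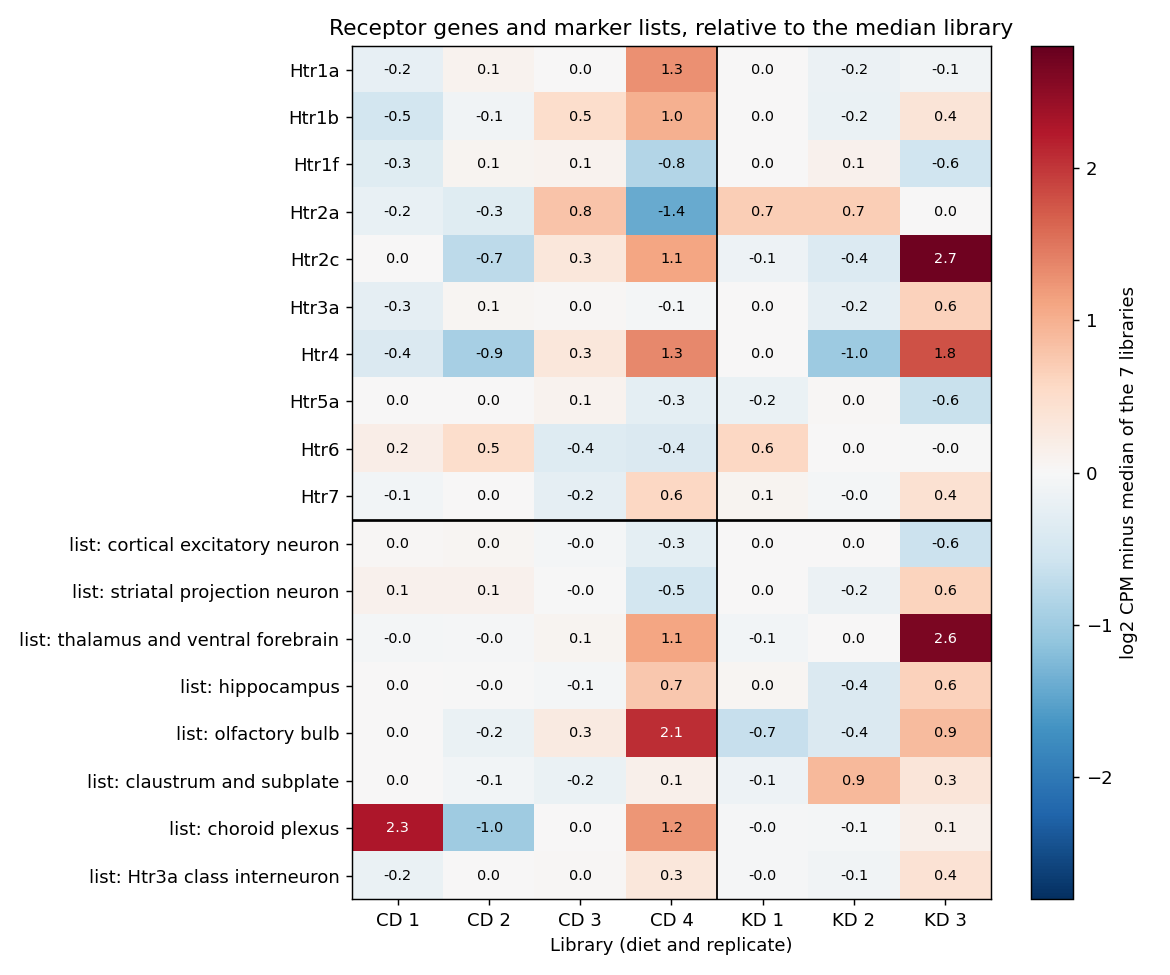
Colour and number give log2 CPM minus the median of the 7 libraries, for receptor genes above the line and for the mean log2 CPM of marker lists below it, with libraries in columns. KD replicate 3 is high for Htr2c and Htr4 and for the thalamus and ventral forebrain list, and CD replicate 4 is high for Htr1a, Htr1b and Htr4 and for the olfactory bulb list.

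The marker lists that moved with these libraries differed between them. In KD replicate 3, Ecel1 was 37.4 CPM against 0.821 to 1.71 CPM elsewhere, Lhx9 10.4 CPM against at most 0.388 CPM, and the 13 striatal markers summed to 601 CPM against 323 to 420 CPM. The striatal enkephalin gene Penk was 123 CPM there against 11.5 to 48.8 CPM. Wfs1, a marker of hippocampal CA1 and amygdala-related neurons, was 146 CPM in CD replicate 4 and 115 CPM in KD replicate 3, against 30.8 to 44.5 CPM elsewhere. The hippocampal list, which includes Wfs1, summed to 381 and 364 CPM in this pair of libraries against 225 to 274 CPM elsewhere. Wfs1 itself thus enters that gap. The mean log2 CPM of the list, in which each gene weighs alike, was 3.40 and 3.29 against 2.24 to 2.70. Of its 12 genes, CD replicate 4 was highest for 5 and KD replicate 3 for 3. The olfactory bulb list summed to 358 and 359 CPM, but KD replicate 2 reached 350 CPM, and the other 4 libraries ran from 152 to 249 CPM. By mean log2 CPM, KD replicate 2 was not near this pair. It lay at 1.02, within the 0.767 to 1.67 of the other 4 libraries. KD replicate 3 lay at 2.30 and CD replicate 4 higher still. Of the 11 genes, KD replicate 2 was highest for 1. The cortical excitatory list was lowest in the same pair, at 1407 and 1455 CPM against 1745 to 1953 CPM.

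Markers of the Htr3a class of interneurons were also highest in this pair, at 1011 CPM in CD replicate 4 and 1070 CPM in KD replicate 3. They summed to 707 to 933 CPM elsewhere. The next lists did not set both libraries of the pair apart. Claustrum and subplate markers were highest in KD replicate 2 (971 CPM against 526 to 756 CPM). Oligodendrocyte markers were low in CD replicate 3 and KD replicate 3 (1132 and 1157 CPM against 2221 to 4371 CPM). Microglial markers ran from 468 CPM in CD replicate 4 to 906 CPM. Astrocyte markers ran from 5088 CPM in KD replicate 3 to 7751 CPM, and markers of Pvalb and Sst interneurons from 626 CPM in KD replicate 3 to 913 CPM. Over all marker lists, 0 genes passed an adjusted p of 0.05 in edgeR's quasi-likelihood test of the diets.

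The mice also differed by sex-linked transcripts, which the labels do not describe. Xist lay at 248 to 531 CPM in CD replicates 1 and 2 and KD replicates 1 and 2 and at no more than 3.08 CPM in the other 3 libraries, where the Y-linked Ddx3y lay at 301 to 333 CPM. The X-linked Htr2c was 10.5 to 17.5 CPM in the 4 libraries with high Xist and 21.7, 37.4 and 115 CPM in the 3 with low Xist, which include both libraries that stood apart. Among the autosomal members, Htr4 was 1.92 to 3.88 CPM in the libraries with high Xist and 4.86 to 13.3 CPM in those with low Xist, and Htr1b was 1.20 to 1.73 CPM and 2.21 to 3.47 CPM. Htr6 lay the other way, at 0.629 to 0.950 CPM and 0.474 to 0.619 CPM. Its nearest values, 0.629 CPM in KD replicate 2 and 0.619 CPM in KD replicate 3, rest on 21 and 14 counts. That gap lies within counting error. Thus 4 of the 10 genes had ranges that did not overlap between these libraries, as did 10.3% of all tested genes. With Xist as a covariate the diet log2 fold change of Htr2c was 0.68 (adjusted p = 0.763).

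By receptor class, KD replicate 3 had the highest or lowest summed CPM for each class given here. CD replicate 4 stood high for the inhibitory and stimulatory classes, but lay inside the range of the other CD mice for the phospholipase class. The inhibitory class, Htr1a, Htr1b, Htr1f and Htr5a, summed to 63.8, 70.6, 73.4 and 84.7 CPM in CD and 64.4, 68.6 and 51.4 CPM in KD. It made up 42.9% to 55.8% of the CPM of all 10 genes in 6 libraries and 21.6% in KD replicate 3. The phospholipase class, Htr2a and Htr2c, summed to 40.5, 31.4, 67.5 and 47.4 CPM in CD and 58.8, 56.2 and 142 CPM in KD. Its KD mean was 1.83 times the CD mean, or 1.23 times without KD replicate 3. The stimulatory class, Htr4, Htr6 and Htr7, summed to 15.8 to 19.2 CPM in 5 libraries, 30.7 CPM in CD replicate 4 and 32.4 CPM in KD replicate 3. All 10 genes together summed to 127, 127, 166 and 170 CPM in CD and 150, 147 and 238 CPM in KD, a ratio of 1.21, or 1.01 without KD replicate 3.

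Across the mice, Htr2c and Htr4 rose and fell together. Over all 45 pairs of receptor genes, correlated on log2 CPM over 7 libraries, this pair alone had a Benjamini-Hochberg adjusted p under 0.05 for Pearson's r. Its r was 0.93 (exact permutation p = 0.000794, adjusted p = 0.0357) and its Spearman rho 0.929 (exact permutation p = 0.00675, adjusted p = 0.152). Without the extremes CD replicate 4 and KD replicate 3, r was 0.87. The ratio of Htr2c to Htr4 stayed between 3.80 and 8.66 while Htr2c itself ranged 11.0-fold. With 1 library left out, r lay between 0.91 and 0.96. Both genes were also higher in every library with low Xist than in any with high Xist. CD replicate 3, with low Xist, stays when the extremes are left out. The part of this split in r was not tested.

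Htr5a and Htr7 had opposite deviations that did not pass the adjustment. Their r was -0.84 (exact permutation p = 0.0171, adjusted p = 0.161), their rho -0.929 (exact permutation p = 0.00675, adjusted p = 0.152), and r was -0.85 without CD replicate 4 and KD replicate 3. Htr1f and Htr7 also opposed each other, with an r of -0.87 (exact permutation p = 0.0151, adjusted p = 0.161) and a rho of -0.714 (exact permutation p = 0.0881, adjusted p = 0.493). That relation rested on the same libraries, since r was -0.10 without them. In all, 20 pairs had a positive and 25 a negative r, and 9 had an unadjusted p under 0.05.

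**Figure D5:**
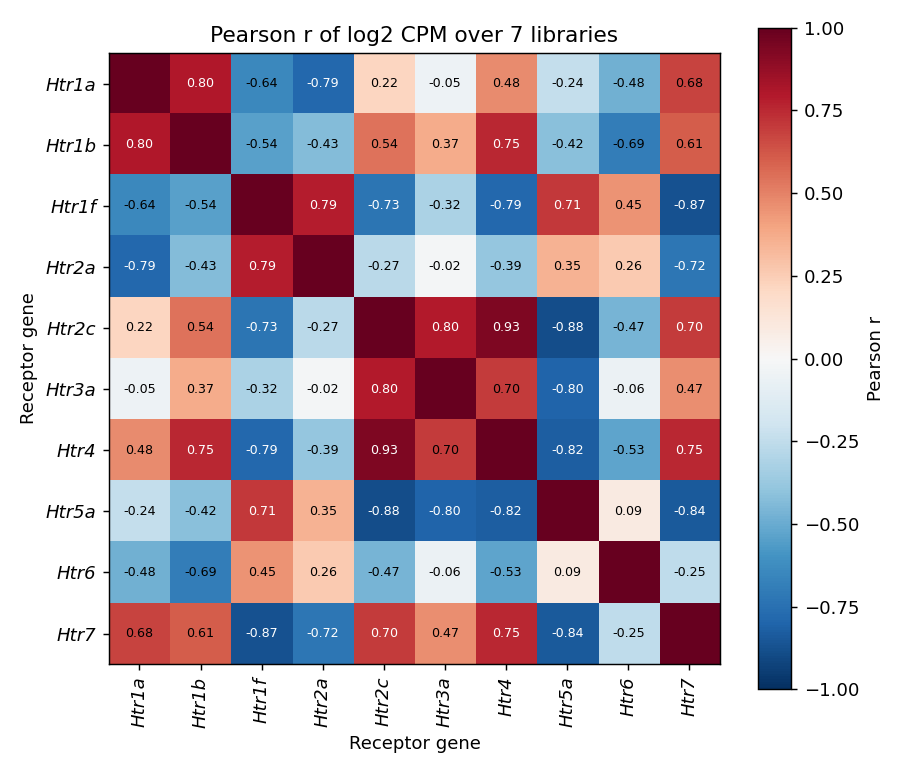
Rows and columns are the 10 receptor genes, and colour and number give Pearson's r of their log2 CPM over 7 libraries. Htr2c with Htr4 (0.93) is the strongest positive pair, and Htr5a has negative r with Htr2c, Htr3a, Htr4 and Htr7.

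The remaining receptor genes of the family were scarce. Htr1d lay at 0.658, 0.274, 0.397 and 0.158 CPM in CD and 0.388, 0.359 and 2.04 CPM in KD, from 6 to 46 counts. Like Htr2c and Htr4 it was highest in KD replicate 3, and its log2 fold change of 1.29 did not pass (edgeR quasi-likelihood test, adjusted p = 0.979). Htr5b, at 0.449 to 1.86 CPM in 6 libraries, reached 5.13 CPM in CD replicate 4, like Htr1a. Htr2b lay at 0.789 to 2.38 CPM, and its exons share 252 bases with Psmd1 on the other strand. Htr3b had 0 to 3 counts per library, at or under the floor of 3 counts, and was not tested.

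Genes that supply, clear and relay serotonin did not pass the adjusted threshold for a diet difference either. Of 58 such genes in 11 lists, 57 were tested, and 0 rose and 0 fell at an adjusted p under 0.05 (edgeR quasi-likelihood test). The smallest adjusted p of all tested genes in this test was 0.979, so these counts do not show that the diets were alike. At a raw p of at most 0.01 the count was 0 of 57, against 0.321% of all tested genes. At a raw p under 0.05 it was 1 of 57, against 3.19%, so that 1 gene does not set the lists apart. Estimates were above 0 for 31 genes and below 0 for 26, with a median log2 fold change of 0.01 against -0.00329 over all tested genes. The gene with a raw p under 0.05 was Kcnj5, a subunit of G protein gated potassium channels, at 0.858 CPM in CD and 1.79 CPM in KD on average. Its counts were 26, 19, 22 and 52 in CD and 36, 92 and 24 in KD, which overlap, and its log2 fold change was 1.06 (adjusted p = 0.979).

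Of the transcripts of serotonin neurons, Tph2 was measurable in every library, while Slc6a4, Fev and En1 had few or no counts. Tph2, the rate-limiting enzyme of neuronal serotonin synthesis, had 59, 120, 29 and 49 counts in CD and 37, 43 and 13 counts in KD. Its level of 0.575 to 4.10 CPM was highest in CD replicate 2, with a log2 fold change of -0.78 (edgeR quasi-likelihood test, adjusted p = 0.979). Slc6a4, the serotonin transporter, had 1 to 20 counts and was not tested. Of the raphe markers, Fev had at most 1 count and En1 had 0 in every library, which allows up to 0.0819 to 0.135 CPM (3 counts, counting error only). The 9 raphe genes together, which include the more widely made Slc18a2 and Ddc, summed to 16.3 to 24.3 CPM.

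Of the 4 enzymes that break serotonin down, Maoa was the steadiest. Maoa lay at 56.1 to 66.6 CPM, with a log2 fold change of 0.05, and Maob at 14.8 to 25 CPM, with 0.13. Aldh2 and Aldh1a1, which oxidise the aldehyde that these enzymes form, ran over wider ranges, 25.2 to 51.3 CPM and 22.5 to 57.2 CPM. Their log2 fold changes were -0.38 (-0.83 to 0.08) and -0.51 (-1.09 to 0.07), and neither passed (edgeR quasi-likelihood test, adjusted p = 0.979 for both). On the receiving side the most abundant member of each list, per length, was Gnai1 at 95.6 CPM per kb for the inhibitory G proteins, Gnas at 84.0 for the stimulatory ones and Gnaq at 47.7 for the phospholipase class. Adcy1 led the adenylyl cyclases at 116 CPM per kb and Plcb1 the phospholipases C beta at 60.2 CPM per kb. Kcnj9 led the potassium channels at 33.6 CPM per kb, and Arrb1 the receptor kinases and arrestins at 43.0 CPM per kb. Adar, an enzyme that edits RNA, of which Htr2c is a known target, was at 28.1 CPM per kb, and its level of 214 to 236 CPM varied far less than that of Htr2c.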

How the data were processed

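RNA-seq was made from the cortex of 7 mice of a transgenic Alzheimer model line, whose full genotype is not reported here. The authors checked reads with FASTQC, aligned them to mm10 with STAR and counted them per gene with the HTSeq method, and they deposited raw counts, 1 table per mouse. Versions, annotation and strand setting are not given in the sources used here. Diet and replicate number came from the sample labels.

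KD was compared with CD in edgeR 4.0.16 under R 4.3.3 (filterByExpr, TMM, glmQLFit with robust=TRUE, glmQLFTest, no covariate), with Benjamini-Hochberg adjustment over 15881 genes. Alternatives used DESeq2 1.42.0, another scaling, filter or test, an Xist covariate, a replicate block and libraries left out. Permutation tests (scipy 1.17.1) covered all 35 splits, or 5040 pairings for correlations, and were two-sided. Within-diet SD is that of log2 CPM with a prior count of 0.5. The procedure was tested on simulated data.

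Lengths and coordinates came from GENCODE M21 on GRCm38 (mm10), with 58 of 58 pathway genes matched, some through older symbols. Upstream windows came from RefSeq. Receptors were named by symbol, pathway and marker genes by lists, and marker genes with values were chosen after these were seen. Members and lists were chosen with earlier results of these data known. The replicates are separate mice, and differed beyond counting noise (chi-square per gene 15.8 to 68.6 between pairs).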

Additional observations from a re-analysis of the deposited data

Results flagged for a closer look

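Within the 4 CD libraries, 27 values (the 10 receptor genes, Htr1d, Htr2b, Htr5b, Kcnj5 and the marker lists) were checked for a library that stands alone, by the gap to its nearest neighbour as a share of the range, against Dixon's critical value. Chance passes about 1 in 20, or 1.35 of 27, and 3 passed on log2 CPM, all marker lists and no receptor. On the CPM scale Htr1a was 43.1 in CD replicate 4 against 15.1 to 18.9 CPM in the others. That gap is a larger share of its range than on log2 CPM, so the count of 3 holds for log2 CPM only. The lists were chosen with earlier results of these data known, and the hippocampal and thalamic lists share Calb2. The chance count is therefore no measure of these 3. Hippocampal markers had a mean log2 CPM of 3.40 in CD replicate 4 against 2.59 to 2.65 in the others (share of the range 0.929). Thalamus and ventral forebrain markers had a mean log2 CPM of 2.76 in CD replicate 4 against 1.6 to 1.73 (0.893). Oligodendrocyte markers had a mean log2 CPM of 5.67 in CD replicate 3 against 7.39 to 7.59 (0.896). The 3 KD libraries were too few for this check, so the Htr2c value of 115 CPM in KD replicate 3 was not examined by it.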

How the results depend on the processing

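No receptor gene passed an adjusted p of 0.05 or a raw p of 0.01 in any of 16 alternative fits, and the smallest adjusted p was 0.674. Htr1a, Htr2a and Htr5a kept their direction in all fits run, and the other 7 turned in at least 1. Leaving out 1 library moved the log2 fold change of Htr1b from -0.47 to 0.053, Htr1f from -0.076 to 0.26, Htr2c from -0.58 to 1.59, Htr3a from -0.073 to 0.40, Htr4 from -0.78 to 0.95, Htr6 from -0.035 to 0.38 and Htr7 from -0.091 to 0.26. Without CD replicate 4 and KD replicate 3 together, Htr2c was at -0.18, Htr3a at -0.070 and Htr4 at -0.19. In that fit 54 of all genes reached an unadjusted p of at most 0.01. Among them was 1 pathway gene, Kcnj5, at a log2 fold change of 1.65 (edgeR quasi-likelihood test, adjusted p = 0.999). Kcnj5 kept its direction in all 16 fits, from 0.60 to 1.38 with 1 library left out. Same-numbered CD and KD libraries deviated together with correlations of 0.229, 0.176 and 0.0894, and since 1 was under 0.1 and the labels name no shared origin, the numbers were not taken to pair the mice. Replicates 1 and 2 had high and replicate 3 low Xist in both diets, and 1 of 3 KD libraries matched its own number best. With the replicate block over 6 libraries, Htr1b was at 0.093 and Htr1f at -0.089. There 2 pathway genes reached an unadjusted p of 0.01 against 0 in the main fit, and 182 of all genes did against 51. That count was 120 with DESeq2, 103 with the likelihood-ratio test, 206 with the Xist covariate, and 19 (without CD replicate 1) to 211 (without CD replicate 3) with 1 library left out. An adjusted p under 0.05 was reached by 1 gene, none of the 10, with the likelihood-ratio test and by 1 with the Xist covariate. Leaving out 1 library brought 0 to 1 pathway genes to an unadjusted p of 0.01. Of the 10 length ranks, 4 held with the longest transcript, 5 without length scaling and 6 to 8 with 1 library left out, 6 being without CD replicate 4. The adjusted pair count was 1 with all libraries and 0 with any 1 left out, where 6 libraries give a single pair an adjusted p of at least 0.0625, so the 0 says nothing about stability. The cause of the other moves was not tested. Scaling moved the median of all genes by at most 0.0109. Htr6 was not tested under the filter of 1 CPM. With 4 and 3 mice, the intervals allow changes of several fold for Htr2c and Htr4.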
